A study of Mus musculus with 4 samples.

Results

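The cells described here were the CD8 T cells of tumour-draining lymph nodes in which 6 genes, Il7r, S1pr1, Il6ra, Tdrp, Arl4c and Rflnb, gave the highest combined score. They numbered 744 of the 10324 cells of the series that passed limits on genes, unique molecular identifiers (UMIs, 1 for each captured RNA molecule) and mitochondrial UMIs, or 7.21%. Before scoring, cells with UMIs of B cell genes (Cd79a, Ms4a1), granzymes A and B, cell cycle genes (Mki67, Top2a, Ccnb2), Izumo1r or killer lectin-like receptor genes (Klre1, Klrc1, Klrc2) at or above small limits were left out, and at least 1 UMI of Slamf6 was required. The filters left 2976 cells. The score was the mean over the 6 genes of the natural log of 1 plus the UMIs per 10000, and the top 25% of the 2976 cells, pooled over all libraries, were taken. The cells were thus chosen by their measured levels of these genes. They are called score-high cells below, and the remaining 2232 are called the other filter-passing cells.

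The study sorted CD44+ CD90.1+ CD8+ cells from lymph nodes draining a tumour in C57BL/6 mice, 14 days after the tumour was implanted, and measured RNA of single cells with 10x Genomics 3′ chemistry. Its title concerns the upkeep of progenitor exhausted CD8 T cells through the T cell receptor (TCR). The group named M9 is labelled as high affinity GP33 and the group named C6M9 as low affinity GP33, where GP33 is a viral peptide seen by CD8 T cells, and both groups shared the sort, the strain and the day. Each group had 2 libraries, called biological duplicates in the labels, from pooled mice (10 for M9 and 35 for C6M9), whose division between libraries is not given in the labels. The library is the replicate throughout (n = 2 per group), and if libraries of a group shared mice, the errors and p-values cover technical spread alone.

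Il7r encodes the alpha chain of the interleukin 7 receptor, which sustains naive and memory T cells. S1pr1 encodes the sphingosine 1-phosphate receptor through which T cells leave lymph nodes, and the transcription factor KLF2 is known to induce it. Memory CD8 T cells are classically divided into central memory cells, which keep lymph node homing receptors such as CCR7, and effector memory cells, which hold ready transcripts such as Ccl5. Progenitor exhausted cells, in turn, keep the transcription factor TCF1 (Tcf7) together with Tox and inhibitory receptors under lasting antigen.

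The score-high cells held 1098474 and 835721 UMIs in M9 replicates 1 and 2 and 5045903 and 2897516 UMIs in C6M9 replicates 1 and 2. Their median UMIs per cell were 9588, 13314, 9992 and 13556.5 in that order of libraries, against 11111, 16924, 11230 and 15508.5 in the other filter-passing cells. The second M9 library and the second C6M9 library were thus deeper per cell than the first of their group. Their median share of mitochondrial UMIs was 4.42%, against 4.29% in the others. Libraries shared 7 cell barcodes over all pairs, none of them in score-high cells.

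Levels of the 6 score genes chose the cells and are given as a description. Il7r (chromosome 15, 9505788 to 9530176 on GRCm38, minus strand) stood at 659 and 607 CPM (UMIs of a gene per 1000000 UMIs, scaled between libraries by the trimmed mean of M values, TMM) in score-high cells of M9, and at 793 and 684 CPM in those of C6M9. In the other filter-passing cells Il7r stood at 125 and 150 CPM in M9 and at 302 and 249 CPM in C6M9. S1pr1 (chromosome 3, 115710433 to 115715072, minus strand) stood at 256, 262, 220 and 244 CPM in score-high cells, in the same order of libraries. All score-high sums of both genes lay above all sums of the other cells. The remaining score genes had lower levels: Arl4c, a small GTPase gene, at 322 to 359 CPM, Rflnb, which encodes a filamin-binding protein, at 159 to 197, Il6ra, the interleukin 6 receptor alpha chain, at 77.5 to 92.7, and Tdrp at 44.2 to 81.4.

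The score rested on several genes in most of these cells. Of 744 cells, 56 had UMIs of 3 score genes, 248 of 4, 281 of 5 and 159 of all 6. Il7r was seen in 98.3% of them, Arl4c in 96.0%, S1pr1 in 92.5%, Rflnb in 75.8%, Il6ra in 60.8% and Tdrp in 49.7%, and Il7r together with S1pr1 in 90.7% against 35.4% of the other cells. The score had no gap at the limit: the last cell taken scored 0.8288 and the first cell not taken 0.8287, and 131 cells lay within 0.05 above the limit and 162 within 0.05 below it. Whether the cells form a cluster over other genes was not tested.

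The labelled cell type was compared with its markers. Of the 5 marker genes of the memory-like label, 4 were score genes and Ccl5 alone had no part in the rule. A Ccl5 UMI was seen in 45.5%, 47.4%, 51.2% and 51.7% of score-high cells by library. With each cell thinned to 2000 UMIs, which removes the difference in depth, Ccl5 was seen in 26.3%, 26.3%, 33.7% and 27.8% of score-high cells and in 12.8%, 16.9%, 27.6% and 21.2% of the other filter-passing cells. In 54 B cells of the same libraries (median 4592 UMIs) no cell had a Ccl5 UMI at that depth, which allows a share of up to 5.56%, and this limit covers counting error only. Within each library the share was higher in score-high cells, and the classes lay closest in C6M9 replicate 1. Ccl5 was thus a transcript of a part of these cells and not of all.

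Genes of other cell types were compared with those of CD8 T cells. Cd8a stood at 492 to 564 CPM in score-high cells and Cd4 at 0 to 1.64 CPM. The B cell genes Cd79a and Ms4a1 stood at 0.9 CPM or less in every library, although all 15 genes of the B cell list were seen, with a summed level of 556 to 666 CPM, mostly from Ighm (277 to 370 CPM) and Cd37 (228 to 285 CPM). Of the natural killer and innate lymphoid list, 5 of 10 genes were at 0 (among them Ncr1, Klra8, Klra7 and Klra4), and the list summed to 137 to 162 CPM, including Eomes, which T cells also express. The myeloid and dendritic list summed to 62.4 to 90.9 CPM with 6 of 14 genes at 0, and the macrophage gene Lyz2 was at 0.205 CPM or less in score-high cells, against 48.0 and 32.8 CPM in the other cells of the C6M9 libraries. The CD4 and regulatory T cell list (7 of 7 seen) summed to 32.4 to 78.3 CPM, the gamma delta and invariant T cell list (6 of 8 seen, Zbtb16 and Blk at 0) to 380.0 to 564 CPM (422 to 542 CPM in the other filter-passing cells), and the red cell, platelet and stroma list (5 of 13 seen) to 70.1 to 96.3 CPM. The T cell identity list (17 of 17 seen) summed to 10314 to 10841 CPM.

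Score-high cells made up 9.03% of the filter-passing cells in M9 replicate 1 (99 of 1096; 95% Clopper-Pearson interval 7.40% to 10.9%) and 27.8% in M9 replicate 2 (57 of 205; 21.8% to 34.5%). They made up 36.7% in C6M9 replicate 1 (408 of 1111; 33.9% to 39.6%) and 31.9% in C6M9 replicate 2 (180 of 564; 28.1% to 35.9%). Both C6M9 libraries lay above both M9 libraries, but the M9 libraries differed from each other by more than M9 replicate 2 differed from either C6M9 library. The means were 18.4% ± 13.3 in M9 and 34.3% ± 3.40 in C6M9 (SD, n = 2), a difference of 15.9 points with an exact two-sided permutation p of 0.333, the smallest that 2 against 2 libraries allow. Without M9 replicate 1 the difference was 6.51 points and without M9 replicate 2 it was 25.3 points. With cells limited to 5000 to 20000 UMIs, a setting chosen after seeing the data, the groups overlapped (12.6 points, exact permutation p = 0.667).

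**Figure D1:**
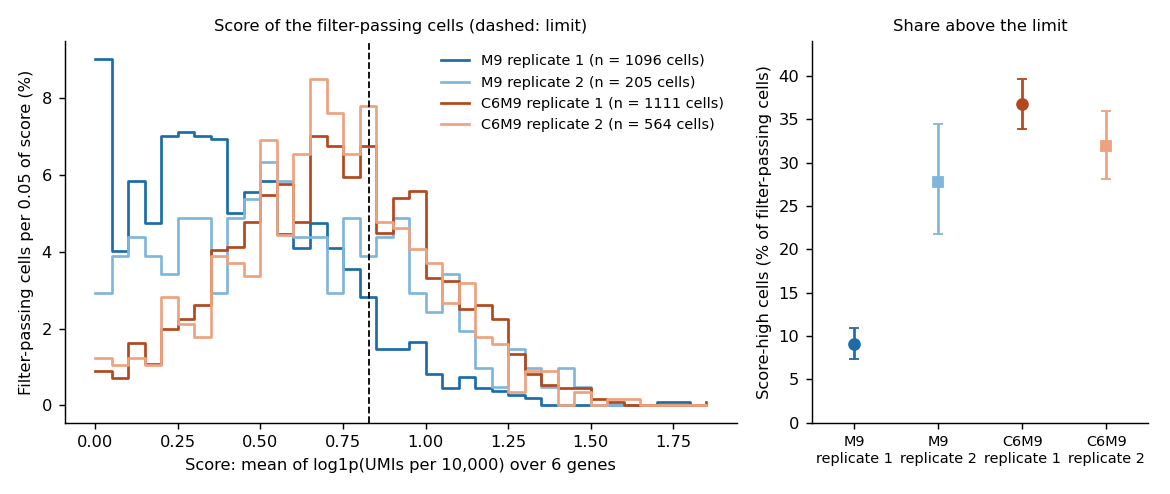
Left, the score of the filter-passing cells (x axis, mean natural log of 1 plus UMIs per 10000 over the 6 genes) as a percentage of each library's cells per 0.05 of score, with the limit dashed; right, the share above the limit in each library, with 95% Clopper-Pearson intervals. M9 replicate 1 sits at low scores with 9.03% above the limit, while the other 3 libraries have 27.8% to 36.7% above it.

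As a share of all cells past the quality limits, score-high cells made up 2.31% and 4.66% in M9 and 13.5% and 9.98% in C6M9, with the same p. The part of the filters in the share difference was not tested, but they left out cells with high scores. Among all cells past the quality limits, 1506 reached the score limit, more than the 744 that also passed the filters on other genes. Each cell left out was counted under the first filter that removed it, in the order of the rule. The cell cycle genes left out 184 of the 1506 and Izumo1r, the folate receptor 4 gene, 275. The killer lectin-like receptor genes left out 131 and a lack of Slamf6 UMIs 129. With no filter on genes, cells at or above the limit made up 5.04% and 13.0% of the M9 libraries and 24.3% and 22.1% of the C6M9 libraries, again with both C6M9 libraries above both M9 libraries.

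Outside the rule, score-high cells had more RNA of genes of lymph node traffic and quiescence, and less of genes induced by TCR signals and of cell growth, than the other filter-passing cells of the same library. This is the contrast that chose the cells, so the values are a description and carry no test. edgeR called 11.1% of 10054 genes here (4.99% higher and 6.15% lower), and nothing is read from those shares. The calls served only in picking the genes with the largest differences named below. Of all genes, 15.2% were higher in score-high cells in all 4 libraries and 17.0% were lower in all 4. Log2 differences are given with the SE of the fit over libraries.

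Ccl5, which encodes a chemokine of memory and effector CD8 T cells (chromosome 11, 83525778 to 83530518, minus strand), stood at 411 and 542 CPM in score-high cells of M9 and at 694 and 504 CPM in those of C6M9. In the other cells it stood at 119 and 170 CPM in M9 and at 450 and 272 CPM in C6M9, a log2 difference of 1.18 ± 0.13. S100a4, a calcium-binding protein gene of memory T cells, was further apart, at 460, 346, 477 and 535 CPM against 81.6, 162, 295 and 160 CPM (log2 difference 1.48 ± 0.17). For S100a4 no library's other cells reached the lowest score-high level, whereas for Ccl5 the other cells of C6M9 replicate 1 exceeded the score-high cells of M9 replicate 1. Other genes with large differences were Ccr10, a chemokine receptor gene (1.39), Slco3a1, an organic anion transporter gene (0.93), Klf3 (0.90), Sgms1 (0.90), Rapgef4 (0.86), S100a6 (0.79), Slc17a9 (0.78), Tnfrsf26 (0.75) and Bbc3, which encodes the death factor PUMA (0.74).

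Klf2, the gene of the transcription factor that induces S1pr1, stood at 708, 578, 660 and 642 CPM in score-high cells and at 282, 274, 509 and 451 CPM in the others (log2 difference 0.79 ± 0.10). All 4 score-high sums lay above all 4 other sums, and the other cells of C6M9 lay above those of M9. Of 28 measured genes of the FOXO, KLF and quiescence list, 20 were higher in all 4 libraries and 1, Tob2, was lower, with a median log2 difference of 0.28 beside 0.00 over all genes. Members of this list with larger differences were Klf3, Klf2, Tob1, an antiproliferative gene (0.74), Tsc22d3, a glucocorticoid- and FOXO-induced gene (0.73), and Txnip, an inhibitor of glucose uptake (0.66).

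Genes of lymph node entry and exit were higher in all 4 libraries for 14 of 24 measured members and lower for 2, Cxcr5 and Itgal, with a median log2 difference of 0.26. Itgb7, an integrin beta chain gene, stood at 299, 246, 250.0 and 251 CPM in score-high cells and at 124, 131, 206 and 219 CPM in the others (log2 difference 0.60). No sum of the other cells reached the lowest score-high sum. S1pr4, a receptor of the S1PR1 family, differed by 0.56, and Selplg, a selectin ligand gene, by 0.51. Ccr7, the receptor that draws T cells into the node, differed less (0.23 ± 0.07), and Cd69, whose protein opposes S1PR1 at the cell surface, was higher in 2 libraries and lower in the other 2.

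Naive and central memory genes were higher in all 4 libraries for 13 of 24 measured members and lower for 3, Myb, Eomes and Cd27. Lef1, a partner of TCF1, stood at 246, 205, 215 and 232 CPM against 146, 121, 177 and 183 CPM, and Tcf7 itself at 577, 605, 558 and 567 CPM against 482, 470, 527 and 507 CPM. The sums of Lef1 and of Tcf7 in the other cells all lay below those in score-high cells. Of the effector memory and cytotoxic list, 8 of 28 were higher in all 4 libraries, among them S100a4, Ccl5, S100a6, Id2 (0.55), Itgb1 (0.48) and Cxcr6 (0.41), and 6 were lower, among them Zeb2 (-2.05), Gzmk (-0.82), Tbx21 (-0.51) and Cst7 (-0.40). In score-high cells Zeb2, a gene of terminal effector cells, stood at 0 to 2.70 CPM.

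Signalling partners of the receptors in the score showed smaller differences. Of 24 measured genes of the common gamma chain and interleukin 6 family list, 5 were higher in all 4 libraries (Il18r1, Il18rap, Stat5b, Jak1 and Il2rg) and 3 lower (among them Il2ra and Il10ra), with a median log2 difference of 0.05. Il6st, which encodes the chain that signals with the interleukin 6 receptor, stood at 78.3, 119, 117 and 114 CPM in score-high cells and at 84.4, 106, 117 and 118 CPM in the others. Il2rb, the chain shared by the interleukin 2 and 15 receptors, stood at 157, 177, 199 and 185 CPM against 147, 184, 186 and 188 CPM. Neither gene stood apart between the cell classes. Bcl2, a survival gene downstream of the interleukin 7 receptor, was higher in score-high cells in 2 libraries and lower in the other 2.

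Of 34 measured genes of the list induced by TCR signals, 24 were lower in score-high cells in all 4 libraries and 0 higher in all 4, with a median log2 difference of -1.17. Cd83, an activation marker gene, stood at 7.20, 1.13, 3.69 and 1.43 CPM in score-high cells and at 66.1, 37.8, 20.7 and 25.4 CPM in the others (-3.18 ± 0.22). Tnfrsf9, which encodes the costimulatory receptor 4-1BB, differed by -2.91, the chemokine genes Xcl1 and Ccl4 by -2.51 and -1.80, and the transcription factor gene Irf4 by -1.28. Nr4a1, an early gene of TCR signalling, stood at 23.4, 1.13, 3.08 and 12.2 CPM, with a wide spread over libraries, against 27.4, 40.5, 9.10 and 18.5 CPM.

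Genes of progenitor exhausted cells were lower in all 4 libraries for 15 of 23 measured members and higher for 2, Tcf7 and Nt5e, with a median log2 difference of -0.45. Tox stood at 124, 144, 84.1 and 96.1 CPM in score-high cells against 208, 207, 97.8 and 123 CPM, and Lag3, an inhibitory receptor gene, at 126, 83.9, 61.9 and 55.6 CPM against 238, 207, 95.4 and 94.8 CPM. Within each library both genes were lower in score-high cells, and within each class both were lower in C6M9. Inhibitory receptor and exhaustion genes were lower in all 4 libraries for 11 of 19 measured members (median -0.83), among them Pdcd1, the PD-1 gene (-0.95), and higher for 2, Vsir (0.52) and Cd5 (0.14). Nrn1, Nrgn, Alcam and Cd74, an invariant chain gene, also stood among the largest negative differences (-1.46, -2.46, -1.33 and -1.94).

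Growth genes were lower as well. For Srm and Eif5a, most of the difference lay in the other cells of lowest score, as given below. Of 28 measured genes of Myc-driven growth and ribosome biogenesis, 23 were lower in all 4 libraries and 0 higher in all 4, with a median of -0.54, from Srm, the spermidine synthase gene (-1.30), to Ddx21 (-0.20). Eif5a, a translation factor gene, stood at 252, 288, 322 and 320 CPM in score-high cells and at 523, 500, 464 and 527 CPM in the others. Of 18 measured glycolysis genes, 9 were lower in all 4 libraries and 2, Pdk1 and Slc2a1, higher. Survival and death genes were mixed, with 3 of 20 higher in all 4 libraries (Bbc3, Birc2 and Xiap) and 7 lower, including Bcl2a1b (-1.04). Among 39 interferon stimulated genes 7 were higher in all 4 libraries and 2 lower, with a median of 0.05. The list of immediate early and dissociation stress genes, a sign of tissue handling, had 7 of 22 higher (among them Zfp36, Junb and Fos) and 5 lower (heat shock genes such as Hspd1), and its part in the result was not tested.

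**Figure D2:**
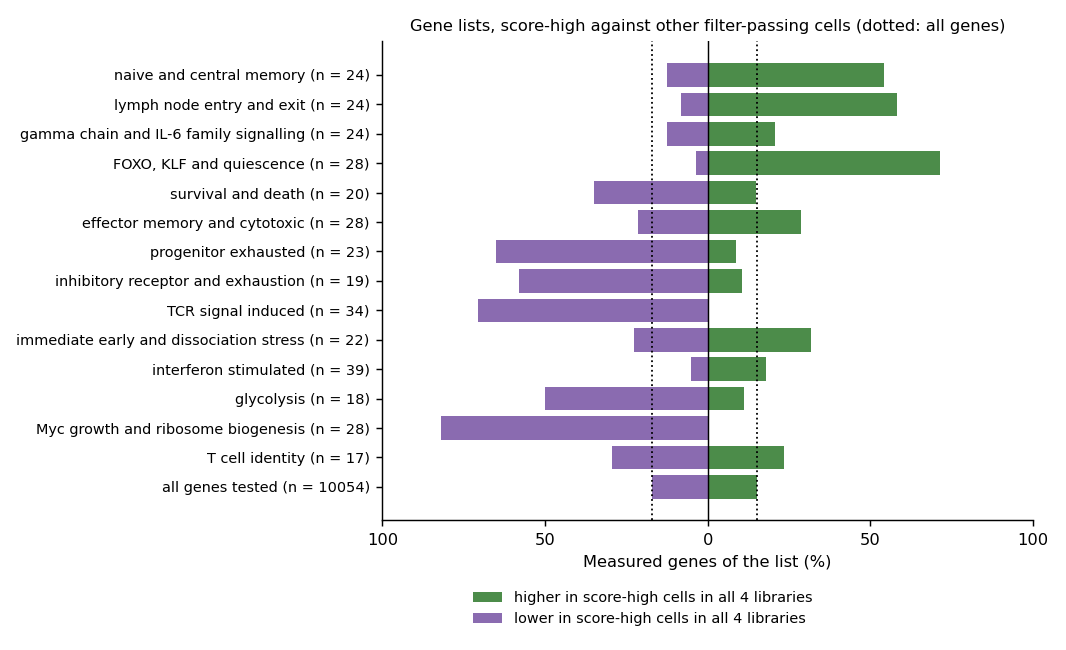
For each gene list, the percentage of its measured genes that were higher (right, green) or lower (left, purple) in score-high cells than in the other filter-passing cells in all 4 libraries; dotted lines mark the same shares over all 10054 genes, 15.2% and 17.0%. FOXO, KLF and quiescence genes and lymph node entry and exit genes extend furthest to the right, and Myc growth and TCR signal induced genes furthest to the left.

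Across the range of the score these genes differed in where their levels changed. The 2976 filter-passing cells were cut into 4 equal parts by score, of which score-high cells are the highest, and levels are given as CPM without TMM scaling, in the order of libraries used above. Klf2 stood at 164, 141, 308 and 215 in the lowest part, at 399.8, 324, 501 and 418 in the next, and at 716, 610.3, 638 and 617 in the highest. Eif5a stood at 717, 787, 778 and 1163 in the lowest part, at 348, 374, 405 and 376 in the next, and at 255, 304, 311 and 308 in the highest. Srm stood at 56.2, 72.8, 90.7 and 118 in the lowest part and at 7.18, 20.7, 21.9 and 18.5 in the next. In the highest part Srm stood at 5.46, 15.6, 15.3 and 16.9. Xcl1 stood at 247, 137, 125 and 246 in the lowest part and at 63.1, 33.1, 24.9 and 25.3 in the next. Its levels in the highest part were 20.9, 8.38, 11.7 and 7.94. Most of the Eif5a, Srm and Xcl1 differences thus lay between the lowest part and the next, whereas Klf2 was higher in each successive part in every library. Cd200, which encodes a ligand of an inhibitory receptor, went in M9 from 243 and 224 in the lowest part to 61.0 and 49.1 in the highest, and in C6M9 from 73.7 and 63.0 to 16.4 and 13.5.

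**Figure D3:**
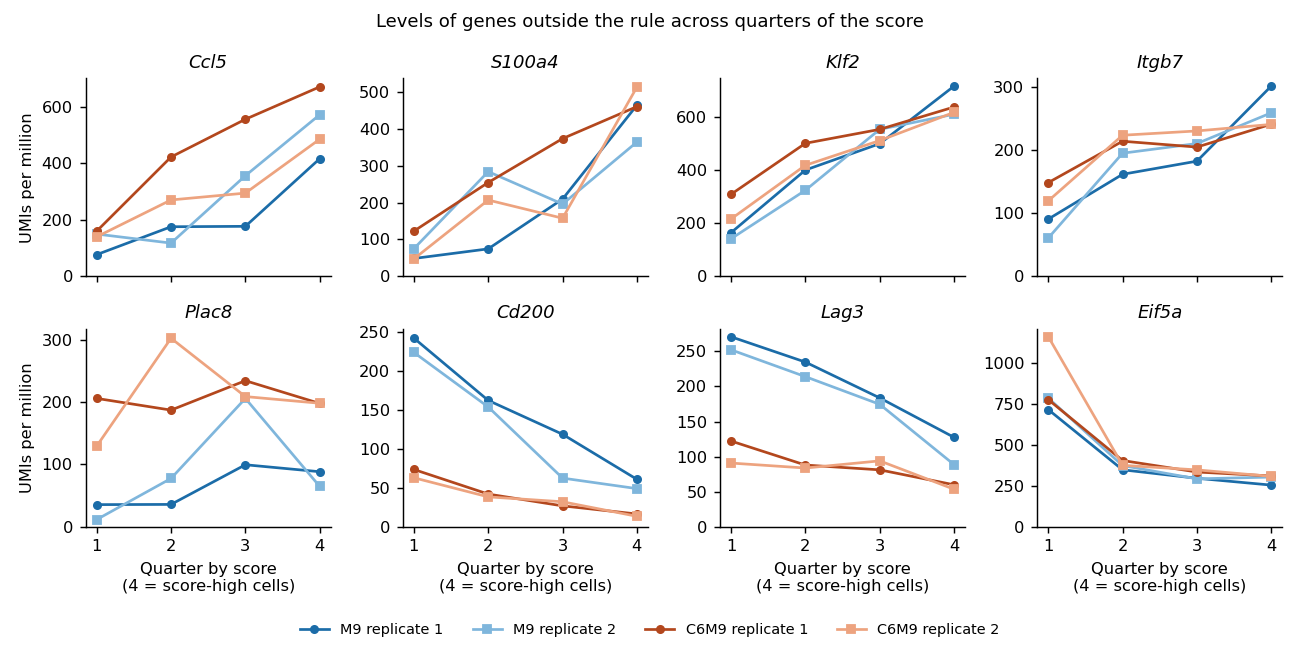
Level (CPM without TMM scaling, y axis from 0) of 8 genes outside the rule in the 4 equal parts of the filter-passing cells by score (x axis, 4 = score-high cells), 1 line per library. Klf2 is higher in each successive part in all libraries, Itgb7 is higher in the highest part than in the lowest, Cd200 and Lag3 are lower there, with M9 above C6M9 in each part, and Plac8 is higher in both C6M9 libraries than in both M9 libraries in each of the 4 parts.

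The design asks how cells under low affinity GP33 (C6M9) differed from cells under high affinity GP33 (M9). Within score-high cells edgeR called 11 of 8656 genes (0.127%), 1 higher in C6M9 (0.0116%) and 10 lower (0.116%). An unadjusted p under 0.05 was found for 723 genes. The M9 libraries held only 99 and 57 score-high cells, so the small number of calls does not show that few genes differed. Groups did not overlap for 40.1% of genes, with C6M9 above for 21.7% and below for 18.4%. The rule used no group label and pooled all libraries, but it kept unlike shares of the groups' cells. The Izumo1r filter left 1442 of 3244 and 334 of 840 cells in M9, and 1646 of 1970 and 852 of 1106 in C6M9. The members were also chosen with earlier results of these data known. The group test was thus not fully independent of how the cells were chosen.

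Plac8, which encodes a small cysteine-rich protein of leukocytes (chromosome 5, 100553725 to 100572245, minus strand), stood at 87.3 and 61.3 CPM in score-high cells of M9 and at 205 and 206 CPM in those of C6M9. Both C6M9 libraries lay above both M9 libraries, and the log2 difference was 1.45 ± 0.15 (SE, edgeR adjusted p = 0.000112). Leaving out any 1 library kept this call, with log2 differences of 1.25 to 1.74. In the other filter-passing cells, where edgeR called 5.03% of 10630 genes (2.07% higher and 2.96% lower), Plac8 differed by 2.02 in the same direction, and the test of the difference between the cell classes gave -0.61 ± 0.18 (edgeR adjusted p = 0.102).

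Cd200 (chromosome 16, 45382135 to 45409053, minus strand) stood at 60.3 and 46.5 CPM in score-high cells of M9 and at 17.0 and 14.0 CPM in those of C6M9, without overlap. It was lower in C6M9, with a log2 difference of -1.77 ± 0.22 (edgeR adjusted p = 0.000703). Sox4, a transcription factor gene (chromosome 13, 28948919 to 28953713, minus strand), stood at 36.9 and 28.4 CPM in M9 and at 11.1 and 6.82 CPM in C6M9 (-1.81 ± 0.29, edgeR adjusted p = 0.00907). Myb, whose protein supports stem-like CD8 T cells, stood at 187 and 108 CPM in M9, a wide spread, and at 74.2 and 83.2 CPM in C6M9 (-0.94 ± 0.18, edgeR adjusted p = 0.0375). Without M9 replicate 1 none of these 3 passed the test, with log2 differences of -1.56 for Cd200 (edgeR adjusted p = 0.0553), -1.60 for Sox4 (0.129) and -0.47 for Myb (0.322), and Myb did not pass without C6M9 replicate 1 either (-0.84, 0.119). These genes were members of the progenitor exhausted list, of which 0 of 20 measured genes rose and 3 fell, with a median log2 difference of -0.52 beside 0.01 over all genes. The list was chosen with earlier results of these data known, so these counts are a description.

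The other genes that fell were Nrp1, the neuropilin 1 receptor gene (-1.06), Scd2, a fatty acid desaturase gene (-0.91), Ptms, the parathymosin gene (-0.76), and Asap1, a GTPase-activating protein gene of the ARF pathway (-0.72). Outside the rule for named genes, and picked after their values were seen, were Gzmk, a granzyme gene (27.9 and 13.6 CPM in M9, 2.46 and 3.95 CPM in C6M9, -2.80), Pdgfb, a growth factor gene (-2.33), and the long noncoding RNA gene 2310001H17Rik (-0.95). All 11 genes differed in the same direction in the other filter-passing cells, and for none of the 11 did the difference between the cell classes pass the test. Without M9 replicate 1 only Plac8 of the 11 remained called, with 6 calls in all. The counts were 125 without M9 replicate 2 (all 11 among them), 8 without C6M9 replicate 1 (4 of the 11, namely Plac8, Cd200, Sox4 and Gzmk) and 20 without C6M9 replicate 2 (6 of the 11, those 4 with Myb and 2310001H17Rik).

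**Figure D4:**
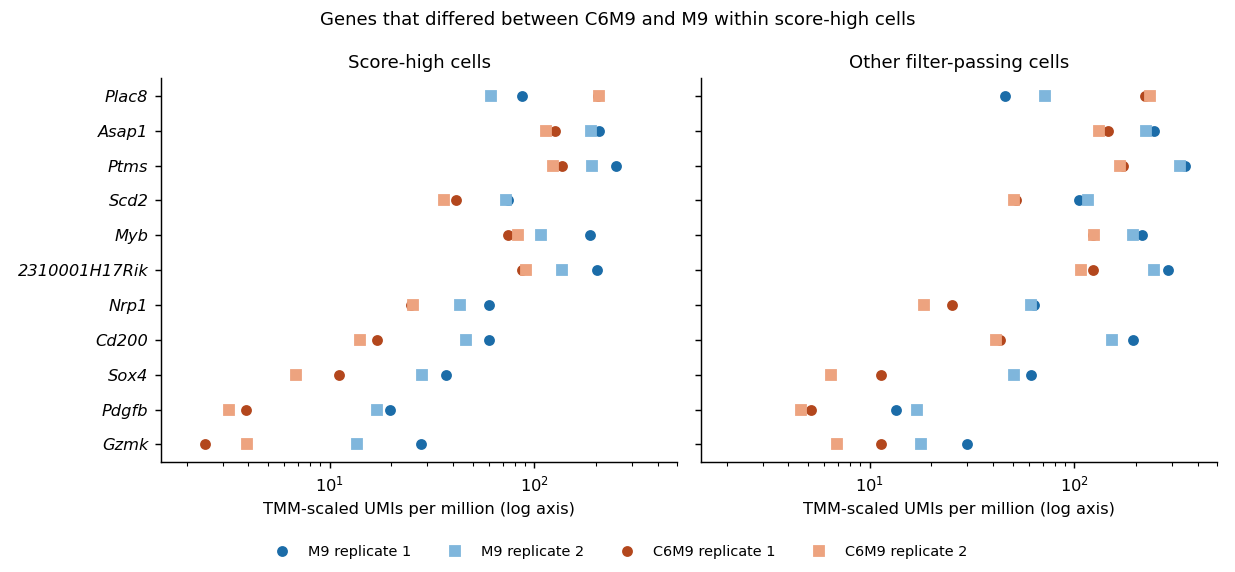
TMM-scaled CPM (log axis) of the 11 genes called between C6M9 and M9 within score-high cells, in score-high cells (left) and in the other filter-passing cells (right), 1 point per library. Plac8 lies higher in both C6M9 libraries (205 and 206) than in both M9 libraries (87.3 and 61.3), the other 10 genes lie lower in C6M9, and the order of the groups is the same in the right panel.

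Score-high cells of both groups were cut at the same limit, and their median scores were close (0.965 and 0.995 in M9, 0.997 and 0.998 in C6M9), so the rule itself limits how far genes that go with the score can differ between the groups here. Klf2 averaged 643 ± 91.6 CPM in M9 and 651 ± 12.7 CPM in C6M9 (SD, n = 2), Lef1 225 ± 28.5 and 224 ± 12.5 CPM, and S100a4 403 ± 80.5 and 506 ± 40.6 CPM. Ccl5 averaged 477 ± 92.6 CPM in M9 and 599 ± 134 CPM in C6M9, a log2 difference of 0.34 ± 0.15 (edgeR adjusted p = 0.571). None of these 4 passed the test. The libraries of the groups overlapped for Klf2, Lef1 and Ccl5 and did not overlap for S100a4. No gene of the lymph node entry and exit list (23 measured), the FOXO, KLF and quiescence list (28) or the common gamma chain list (22) was called in either direction. The naive and central memory list (24) had 1 call, Myb, which fell, and the effector memory and cytotoxic list (25) had 2, Plac8, which rose, and Gzmk, which fell.

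Several genes came close without a call. Ly6c2, whose protein marks memory CD8 T cells and whose UMIs can be shared with its near copy Ly6c1, stood at 438 and 265 CPM in M9 and at 607 and 615 CPM in C6M9 (0.79 ± 0.16, edgeR adjusted p = 0.05335). Tsc22d3 stood at 45.0 and 38.6 CPM against 75.1 and 75.3 CPM (0.84), and Gpr183, a receptor gene that positions T cells in the node, at 141 and 149 against 89.6 and 95.4 CPM (-0.65), each with the same adjusted p. Lag3 averaged 105 ± 29.7 CPM in M9 and 58.8 ± 4.48 CPM in C6M9 (-0.85 ± 0.17, edgeR adjusted p = 0.0518), and Tox 134 ± 14.1 and 90.1 ± 8.52 CPM (-0.58 ± 0.14, edgeR adjusted p = 0.169). For each of these 5 genes the groups did not overlap.

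By list, the inhibitory receptor and exhaustion genes had 8 of 14 measured members with C6M9 below M9 in both libraries and 1 above, a median log2 difference of -0.83 and 0 calls. Interferon stimulated genes had 19 of 38 above and 2 below (median 0.20, 0 calls), among them Isg15 at 62.1 and 62.4 CPM in M9 and 98.6 and 85.4 CPM in C6M9. Growth and ribosome biogenesis genes had 14 of 27 above and 3 below (median 0.23, 0 calls). Immediate early and dissociation stress genes had 7 of 22 above and 0 below (median 0.17, 0 calls). These shares stand beside 21.7% above and 18.4% below over all genes.

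Whether the group difference was itself different in score-high cells and in the other filter-passing cells was tested as a difference of differences. edgeR called 106 of 10054 genes (1.05%), 22 higher (0.219%) and 84 lower (0.835%). The classes were cut by score, and the scores of the other cells differed between the groups, as given below. For genes that go with the score, the outcome of this test was thus partly set by the rule. Over the 84 called lower, the median group difference was -0.01 in score-high cells and 0.44 in the other cells. For 19 of the 22 called higher that were measured in both classes, the medians were 0.37 and -0.72.

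Klf2, which was higher in each successive part by score, is an example. It differed between the groups by 0.01 in score-high cells and by 0.79 in the others, a difference of -0.78 ± 0.08 (edgeR adjusted p = 3.28e-08). Ccl5 differed by 0.34 and 1.35 (-0.99 ± 0.09, edgeR adjusted p = 3.80e-09), and Ly6a, the Sca-1 gene, which stood at 128, 93.0, 108 and 99.7 CPM in score-high cells and at 48.4, 54.3, 129 and 108 CPM in the others, by -0.10 and 1.23. Of 24 lymph node entry and exit genes, 7 were called lower and 0 higher (Itgb7, S1pr4, Klf2, Itga4, Emb and Selplg among them), and of 28 effector memory and cytotoxic genes 7 lower and 0 higher (Ccl5, Vim, S100a6, Lgals1, Klrd1, Anxa2 and S100a10). In the other direction, Tnfsf8, the CD30 ligand gene, differed by 0.37 in score-high cells and by -0.88 in the others, Eomes by -0.29 and -1.12, and the survival gene Bcl2a1b by -0.16 and -0.93. Some of these calls rested on 1 library. Without M9 replicate 1, S100a6, Lgals1, Anxa2 and Itga4 lost the call (-0.01, -0.25, -0.14 and -0.45). Without C6M9 replicate 1, S100a6, Anxa2, Emb, Selplg and Bcl2a1b lost it (-0.32, -0.45, -0.48, -0.43 and 0.64), and without C6M9 replicate 2, Anxa2, Itga4, Emb and Selplg did (-0.48, -0.50, -0.51 and -0.34).

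The other filter-passing cells did not have the same score in each library, and this moved with the result. Their median score was 0.354 and 0.445 in the M9 libraries, against 0.568 and 0.605 in the C6M9 libraries, whereas that of score-high cells was 0.965 to 0.998. With the other cells limited to the third of the 4 equal parts by score, whose medians were 0.700 to 0.716, edgeR called 0 genes, with 489 at an unadjusted p under 0.05; this setting was chosen after seeing the data and compared fewer cells (39 in M9 replicate 2). Ccl5 then differed by -0.53, Itgb7 by -0.44 and Klf2 by -0.15. Without C6M9 replicate 1 there were 43 calls and without C6M9 replicate 2 there were 52.

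**Figure D5:**
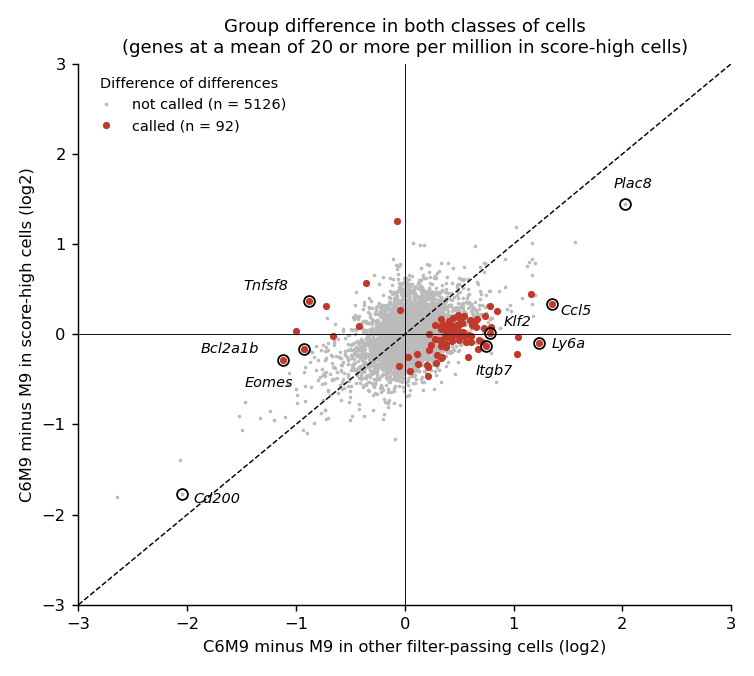
Log2 difference C6M9 minus M9 in the other filter-passing cells (x axis) and in score-high cells (y axis) for genes at a mean of 20 CPM or more in score-high cells; the 92 in red were called in the difference of differences, and the dashed line marks equal differences. Plac8 and Cd200 lie far from 0 on both axes, while Ccl5, Klf2, Ly6a and Itgb7 lie between -0.13 and 0.34 on the y axis and between 0.75 and 1.35 on the x axis.

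Cells that failed a single filter on genes were set beside score-high cells. These classes were not cut by score. Levels of the score genes Il7r and S1pr1 below those of score-high cells thus follow largely from the rule. The 874 cells with killer lectin-like receptor UMIs that passed all other filters had Il7r at 274, 377, 505 and 446 CPM (without TMM scaling) and S1pr1 at 69.1, 87.1, 95.6 and 107, both below the score-high cells, whose unscaled levels were 666, 640, 767 and 658 for Il7r and 259, 276, 213 and 235 for S1pr1. Their Ccl5 stood at 385, 629, 649 and 588, beside 416, 572, 671 and 485 in score-high cells. Their Tcf7 stood at 587, 626, 590 and 627, beside 584, 638, 539 and 546. Their S100a6 stood at 577, 601, 943 and 840, beside 783, 532, 697 and 612. Ccl5, Tcf7 and S100a6 were thus not particular to score-high cells. S100a4 in these 874 cells stood at 257, 243, 500 and 358, beside 465, 365, 461 and 515. It lay above score-high cells in C6M9 replicate 1 alone. The Klf2 level of the 874 cells, at 313, 353, 415 and 389, lay below that of score-high cells (716, 610, 638 and 617). The 371 cells without a Slamf6 UMI, only 13 of them in M9 replicate 2, had Il7r at 223, 654, 425 and 323 and S1pr1 at 120, 209, 164 and 144. Their Il7r in M9 replicate 2 lay above that of score-high cells, and their other Il7r and S1pr1 values lay below. Their S100a4, at 91.9, 1267, 357 and 222, also lay above that of score-high cells in M9 replicate 2 alone. The 2246 cells that failed only the filter on Izumo1r had Il7r at 96.0, 148, 333 and 273 and S1pr1 at 55.2, 73.1, 121 and 143, below score-high cells in each library. The difference between these classes and score-high cells was not tested.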

How the data were processed

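Each of the 4 libraries has a deposited matrix of raw UMI counts for genes by cells. The submitters' processing notes name Cell Ranger 6.0.0 and the build mm10. For the annotation and the use of intronic reads, the sources used here give nothing. Cells needed at least 500 genes, 1000 UMIs and at most 10% mitochondrial UMIs (10324 of 11113 barcodes). Members were found by the rule above, using 18 genes (6 for the score, 12 for filters), and raw counts were summed per library over members and over the other filter-passing cells.

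edgeR 4.0.16 (R 4.3.3; TMM over all sums, filterByExpr, quasi-likelihood test on a trended dispersion, two-sided) compared the sums, adjusted over every gene tested (Benjamini-Hochberg, threshold 0.05). The 18 rule genes stayed in the library sizes and out of the tests. Members minus others and the difference of differences had library as a block. The scripts were tested on simulated data. An exact permutation test over libraries compared the shares, and scanpy 1.11.5 in Python 3.11.15 gave Scrublet scores. Its automatic limit marked at most 0.327% of cells in any library, so doublets stayed in and the highest scores were left out, at 0.8% per 1000 barcodes, only as an alternative; 2 members were among them. Coordinates are from GENCODE on GRCm38.

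The members and the 20 gene lists were chosen with earlier results of these data known. Genes were named as the 12 largest called differences in each direction (6 for the difference of differences) at a mean of at least 20 CPM, beside rule genes, label markers and examples from lists. Groups had to be apart for C6M9 minus M9, and all 4 libraries to share a direction for members minus others. Rule genes, variable segments, sex genes and unnamed gene models were left out of these picks. Alternatives covered scaling, DESeq2 1.42.0, filters, left-out libraries, the share taken, depth, doublets, equal cells (57 per library) and the replicate number. Results for some genes are not reported here.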

Additional observations from a re-analysis of the deposited data

Results flagged for a closer look

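For 12 named genes the C6M9 minus M9 difference in score-high cells differed from that in the other filter-passing cells by edgeR's test of the difference itself (2 libraries per group). The classes were cut by score, and the other cells had median scores of 0.354 and 0.445 in M9 and 0.568 and 0.605 in C6M9. For genes that go with the score, the outcome was thus partly set by the rule. The C6M9 minus M9 difference was higher in score-high cells for Cd74 (1.51 on the log2 scale), Slc7a1 (1.43), Med11 (1.33), Tnfsf8 (1.25), Egr1 (1.08) and Trps1 (1.04). It was lower for Ly6a (-1.38), F2rl1 (-1.23), Slco3a1 (-1.03), Ccl5 (-0.99), Itgb7 (-0.89) and S1pr4 (-0.86). Med11, which encodes a Mediator subunit, was the only one of the 12 whose group difference was further from 0 in score-high cells (16.2 and 11.3 CPM in M9, 35.9 and 30.1 CPM in C6M9) than in the others (36.1 and 44.2 against 37.3 and 37.2 CPM). Without M9 replicate 1 Slc7a1 lost the call (1.03). Without M9 replicate 2 Cd74, Med11, Egr1 and Trps1 lost it (1.35, 1.01, 0.79 and 0.81). Without C6M9 replicate 1 Cd74, Slc7a1, Med11, Egr1 and Trps1 did (1.14, 1.32, 1.19, 0.63 and 1.01), and without C6M9 replicate 2 Trps1 and Slco3a1 (1.08 and -0.93). None of the 12 passed the test when the other cells were limited to the third of 4 equal parts by score. No group had enough libraries to test for an outlying sample.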

How the results depend on the processing

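Limits first: 57 score-high cells and 835721 UMIs in M9 replicate 2 set the depth for genes at a few CPM, 2 libraries per group set the spread, and 9.03% against 27.8% of cells taken in the M9 libraries set how those libraries weigh.

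Counts of calls that moved by over 1.5 times are given here. For left-out libraries the full range is given, and some counts in it moved by less. For C6M9 minus M9 in score-high cells (11), they were 17 with DESeq2's size factors, 6 with DESeq2's Wald test, 63 with no filter on low counts, 0 with the top 10% by score (410 at an unadjusted p under 0.05), 26 with the top 40%, 30 with a score from thinned cells, 5 with equal cells per library, and 6 to 125 with a library left out. For score-high minus other cells (1120), they were 510 with DESeq2, 530 with the top 10%, 1728 with the top 40%, 584 with the thinned score, 363 with cells of 5000 to 20000 UMIs, 58 against the third of 4 parts by score, and 699 to 831 with a library left out. For the difference of differences (106), they were 33 with DESeq2, 31 with the top 10%, 37 with the thinned score, 37 with cells of 5000 to 20000 UMIs, 0 against the third part by score, and 43 to 134 with a library left out. The 2 settings on cells of 5000 to 20000 UMIs and on the third part were chosen after seeing the data.

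The labels give the replicate numbers no meaning across groups, although both second libraries were deeper per cell (median 13314 and 13556.5 UMIs in score-high cells, against 9588 and 9992). Deviations of replicate 1 from replicate 2 in M9 and in C6M9 had a correlation of -0.0305 over 8656 genes, and the numbers were not taken as pairs. Counting noise in these sums can lower such a correlation, so it does not decide whether like-numbered libraries go together. With a replicate block edgeR called 0 genes for C6M9 minus M9 (565 at an unadjusted p under 0.05), and 37 for the difference of differences.

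The share difference of 15.9 points was 8.28 over all cells past the quality limits, 6.32 with the top 10%, 24.3 with the top 40%, 12.5 with the thinned score, 15.7 without the highest doublet scores, 12.6 with cells of 5000 to 20000 UMIs, and 6.51 to 25.3 with a library left out. C6M9 was higher on average in each.

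Some directions turned. For C6M9 minus M9, Bcl2 was -0.67 to 0.69 with a library left out and 0.33 with equal cells, Ccl5 was -0.35 and Ly6c2 -0.17 with the top 10%, Klf2 was -0.0057 with DESeq2, and -0.11 to 0.16 with a library left out, and S100a4 was -0.26 with the top 10%. Lef1 (-0.02) was 0.39 with the top 10%, 0.00070 with the top 40%, 0.097 with the limit set per library, 0.20 with the thinned score, 0.053 with cells of 5000 to 20000 UMIs, 0.049 with equal cells and -0.13 to 0.11 with a library left out. Against the third part by score Ccl4 was 0.24 in score-high minus other cells, and in the difference of differences Btg2 was 0.0012, S100a6 0.021 and Selplg 0.055; Lef1 was 0.041 with the top 10%. The cause was not tested. Over all named genes and settings, 285 values for C6M9 minus M9 kept direction and side of the threshold. Another 67 lost the call, 29 gained it and 16 turned. For the difference of differences 313 kept both, 178 lost the call and 4 turned. For score-high minus other cells 274 stayed the same, 61 moved without turning and 1 turned. Against the third part by score 23 of these moved and 1 turned, and with the thinned score 18 moved and 6 stayed the same.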
